A study of Homo sapiens with 9 samples.

Results

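IFI6, IFI27, IFI35, IFI44, IFI44L, EPSTI1, XAF1, LY6E, PLSCR1 and HELZ2 are 10 interferon-stimulated genes outside the OAS, MX and IFIT families. They were followed through all probes that carry these symbols in the probe annotation, which gave 13 probes among the 47322 on the array and 10 genes among 20046 with a symbol. IFI6, IFI44L and XAF1 had 2 probes each, and the other 7 genes had 1. The brighter probe of a gene is called its first probe. All 13 passed the filter on dim signals (detection p under 0.05 on at least 3 of 9 arrays), as did 22039 probes in all. For the second probe of XAF1, the recovery arrays were needed to reach that number.

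The arrays come from SaOS2, a human osteosarcoma line with osteoblast-like traits, grown with G418 and hygromycin and carrying a doxycycline-inducible construct for an RNA antisense to APC. There were 3 control arrays of such cells without doxycycline, 3 arrays after 3 days in doxycycline at 1 µg/ml, and 3 recovery arrays after the same 3 days in the drug and 3 further days in medium without it. No control harvested alongside the recovery cells is described, so recovery and the longer time in culture cannot be told apart. A doxycycline-treated line without the antisense construct is not among these samples, so the drug and the antisense RNA cannot be told apart either. The labels do not say whether the replicates of a group were separate cultures. The p-values then reflect only how far these arrays differ from each other, which may be technical.

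Type I interferons bind a receptor on the cell surface that activates the kinases JAK1 and TYK2. Signalling through them leads a complex that contains IRF9 to bind a DNA element with paired GAAA cores in the promoters of interferon-stimulated genes. The products act against viruses in many ways, and several of the 10 described here are known for effects on membranes or on cell survival rather than for cutting or sensing RNA.

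The promoters are printed because they show the letters that element is made of, and how differently the genes carry them. Windows from 250 bases before to 50 bases after the annotated start were taken from RefSeq (GRCh38.p14) for 9 of the 10 genes, all but LY6E. LY6E was excluded from the search by hand and a match there was not looked for, so the counts are not complete for the 10 genes. The motif GAAANNGAAA, or TTTCNNTTTC on the other strand, stood in the first windows of 6 of the 9, namely IFI6, IFI27, IFI44, IFI44L, EPSTI1 and PLSCR1, against 3.65% of 27305 first windows of all genes. The shorter spacing GAAANGAAA, or TTTCNTTTC, was searched after the letters had been seen. It stood in 4 of the 9 (IFI44, where it overlaps the longer motif, IFI35, XAF1 and PLSCR1) against 3.22% of all first windows. The XAF1 match began 5 bases before the start and ran past it, and another annotated window of XAF1 held neither motif. The XAF1 stretch is not printed. Either motif was present in 8 of 9 against 6.55%, and HELZ2 had neither in its window. In the stretches below, 5′ to 3′ on the strand of the gene, capitals mark the matches. A match describes letters and does not show that a factor binds there.
IFI6 (chr1:27672246-27672378, minus strand): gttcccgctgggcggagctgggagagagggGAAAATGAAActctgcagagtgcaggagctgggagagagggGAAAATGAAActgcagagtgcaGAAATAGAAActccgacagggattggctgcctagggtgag
IFI27 (chr14:94110598-94110680, plus strand): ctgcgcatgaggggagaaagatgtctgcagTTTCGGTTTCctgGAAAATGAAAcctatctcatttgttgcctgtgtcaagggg
IFI44 (chr1:78649741-78649788, plus strand): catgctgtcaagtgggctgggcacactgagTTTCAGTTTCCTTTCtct
IFI44L (chr1:78620254-78620414, plus strand): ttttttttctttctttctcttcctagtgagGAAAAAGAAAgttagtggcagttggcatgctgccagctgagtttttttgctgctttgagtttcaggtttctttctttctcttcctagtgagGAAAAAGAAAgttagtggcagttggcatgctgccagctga
IFI35 (chr17:43006738-43006783, plus strand): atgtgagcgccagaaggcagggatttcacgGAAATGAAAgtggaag
EPSTI1 (chr13:42992252-42992321, minus strand): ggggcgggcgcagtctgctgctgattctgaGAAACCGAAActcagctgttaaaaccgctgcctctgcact
PLSCR1 (chr3:146544614-146544716, minus strand): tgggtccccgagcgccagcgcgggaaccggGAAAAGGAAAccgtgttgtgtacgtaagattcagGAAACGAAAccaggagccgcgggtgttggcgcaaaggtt

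IFI6 carried 3 matches of the longer motif, 156, 115 and 93 bases before the start, and the first pair lies in a repeat of 29 bases whose copies begin 41 bases apart. IFI44L carried its 2 matches, 164 and 73 bases before the start, in a repeat of 85 bases with copies 91 bases apart. An exact repeat of 29 bases or more was present in 0.905% of first windows. The IFI27 pair stood 108 and 95 bases before the start, and its members run on opposite strands. IFI44 and EPSTI1 each had a single match of the longer motif, 18 and 50 bases before the start. IFI35 had only the shorter motif, 16 bases before its start.

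Levels below are normalised log2 intensities, and differences are log2 differences ± standard error from limma, 3 arrays a group, with Benjamini-Hochberg adjusted p over all 22039 probes. A probe was called at an adjusted p under 0.05. Between 20141 and 21317 probes were detected per array. Doxycycline replicate 2 stood apart from the other 8 arrays, at -66.26 on the second principal component against -15.07 to 15.18, and the median standard deviation within a group was 0.131 for control, 0.229 for doxycycline and 0.133 for recovery. The single APC probe, near background and of unexamined position and strand relative to the antisense RNA, read 5.14, 5.04 and 5.68 in control, 5.43, 5.44 and 5.40 under doxycycline, and 5.48, 5.28 and 5.48 in recovery. It was not called for doxycycline against control (0.13 ± 0.17, limma adjusted p = 0.65) or for recovery against control (0.12 ± 0.17, adjusted p = 0.68), so it does not serve as a check of the labels. Of 10 osteoblast markers 7 were measured, among them RUNX2, SP7, ALPL and COL1A1, which were detected on all 9 arrays, while SPP1 and BGLAP did not pass the filter.

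All 10 genes stood above control at recovery, and 8 of them were already above control after 3 days in doxycycline. Under doxycycline 10 of the 13 probes were called higher than control, against 1.02% of all probes. At recovery 13 of 13 were called higher than control, against 7.49%. From doxycycline to recovery 11 of 13 rose further, against 6.34%. In these comparisons 0 of the 13 probes were lower by limma, also at an unadjusted p under 0.05. Of all genes, read at their first probes, 7.68% were called lower in recovery than control and 7.63% lower than under doxycycline. The share called lower under doxycycline, and the shares at the unadjusted p, were not counted. The medians over the 13 probes were 1.30 for doxycycline against control, 2.58 for recovery against control and 1.33 for recovery against doxycycline, and the medians over all probes were -0.01, -0.03 and -0.01. The doxycycline arrays lay wholly above the control arrays for 12 probes (12.6% of all probes did so), the recovery arrays above control for 13 (19.9%) and the recovery arrays above doxycycline for 12 (15.5%). The second XAF1 probe is among the 13. It passed the filter only with its recovery arrays, so its recovery calls add no support. The first probes, which leave it out, were called higher for 8, 10 and 8 of 10 genes in the same order of comparisons. Of all genes, 1.28%, 8.76% and 6.99% were. The comparisons share arrays and are not separate evidence. In bulk RNA, more cells expressing a gene and more RNA per cell cannot be told apart.

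**Figure D1:**
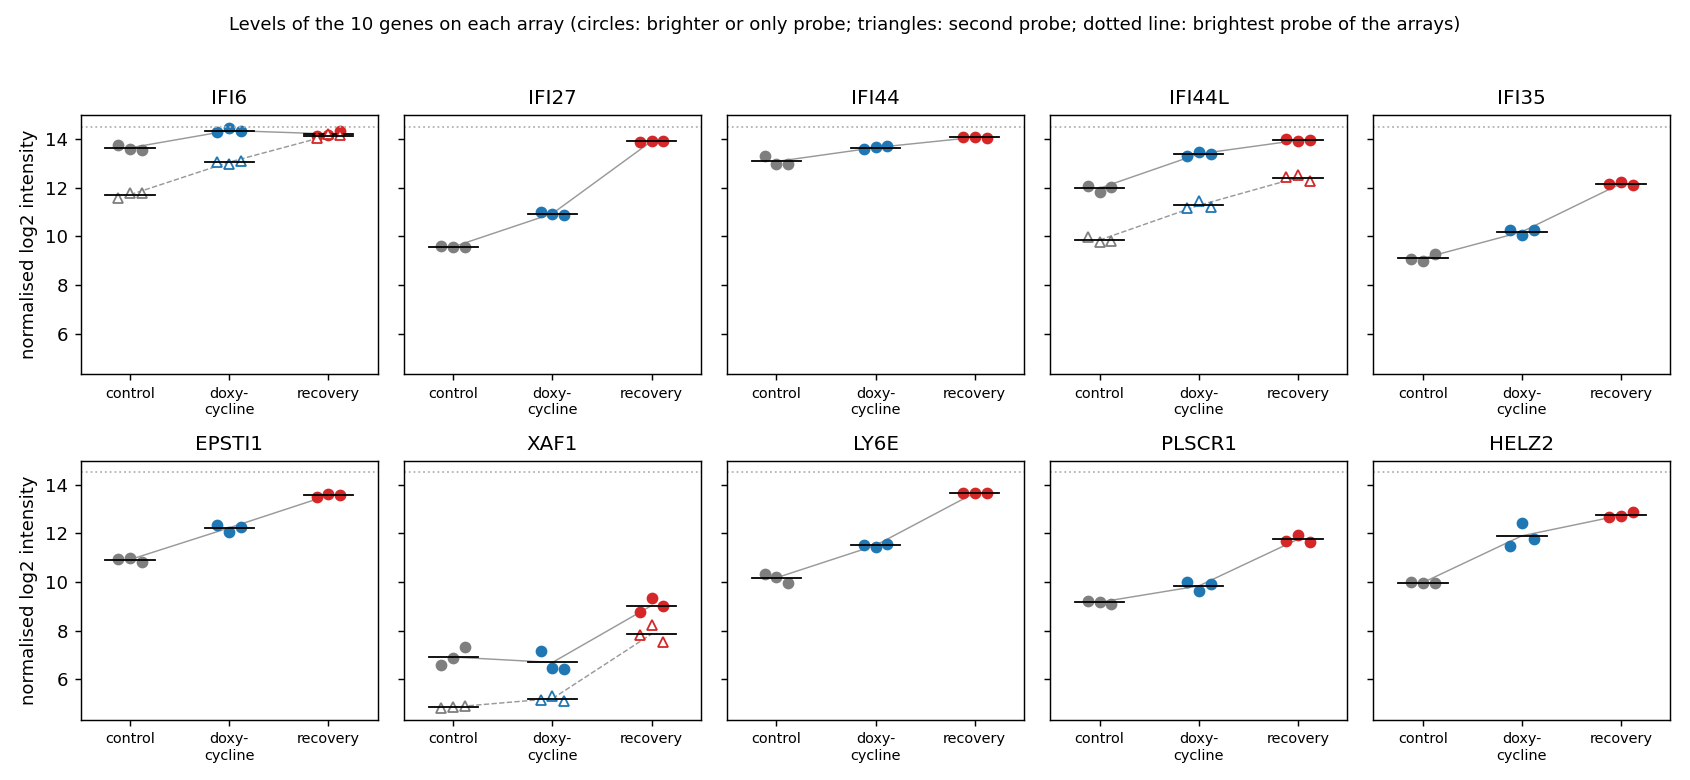
Normalised log2 intensity (vertical axis) of the 10 genes on each control, doxycycline and recovery array, with 1 point per array and a bar at each group mean; circles are the brighter or only probe, triangles the second probe, and the dotted line is the brightest probe of the arrays. Most probes climb in steps from control over doxycycline to recovery, while the first probe of XAF1 overlaps between control and doxycycline and the first probe of IFI6 overlaps between doxycycline and recovery.

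IFI27 showed the largest rise at recovery among the 12 probes detected in control. The second XAF1 probe, undetected there, cannot be ranked. IFI27 and IFI6 encode small hydrophobic proteins of one family, found in mitochondria and other internal membranes, and IFI6 is known to delay apoptosis. The IFI27 probe (ILMN_2058782) read 9.62, 9.54 and 9.54 in control, 11.01, 10.90 and 10.88 under doxycycline, and 13.86, 13.91 and 13.93 in recovery. The groups did not overlap, and arrays within a group lay within 0.13 of each other. IFI27 was 2.58-fold above control under doxycycline (1.37 ± 0.11, limma adjusted p = 7.9e-05) and 20.2-fold above control in recovery (4.33 ± 0.11, adjusted p = 6.1e-10). Recovery exceeded doxycycline 7.83-fold (2.97 ± 0.11, adjusted p = 1e-07).

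The 2 probes of IFI6 gave different courses. The second, dimmer probe (ILMN_2347798) read 11.55, 11.77 and 11.80 in control, 13.07, 12.97 and 13.10 under doxycycline, and 14.03, 14.22 and 14.16 in recovery. It rose in both steps, by 1.34 ± 0.13 under doxycycline over control (limma adjusted p = 0.00016) and by 1.09 ± 0.13 in recovery over doxycycline (adjusted p = 0.00021), which made recovery 5.39-fold higher than control. The first probe (ILMN_1687384) read 13.76, 13.59 and 13.55 in control, 14.27, 14.44 and 14.32 under doxycycline, and 14.12, 14.14 and 14.34 in recovery. Its doxycycline and recovery arrays overlapped and both lay above control, by 0.71 ± 0.13 for doxycycline (adjusted p = 0.02) and 0.57 ± 0.13 for recovery (adjusted p = 0.011). Recovery minus doxycycline was -0.14 ± 0.13 at this probe (adjusted p = 0.53).

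The first IFI6 probe was among the brightest on the array. By mean level it ranked 190 of 47322 in control, 3 under doxycycline and 27 in recovery, and its highest reading of 14.44 lay close to the brightest value of any probe, 14.50. Its deposited signals under doxycycline were 19696 to 22229, where the brightest signal of an array was 21676 to 24449. The files hold no saturation flag, and whether the probe could have read higher was not tested. Its doxycycline call was lost without control replicate 2 (0.68, adjusted p = 0.12), control replicate 3 (0.68, 0.11) or doxycycline replicate 3 (0.73, 0.066), and its recovery call without recovery replicate 3 (0.48, 0.065). Median scaling ended both (0.68, 0.061 for doxycycline and 0.58, 0.052 for recovery). In all, the doxycycline call was lost in 7 of 23 alternatives and the recovery call in 3.

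IFI44 and IFI44L are neighbouring genes on chromosome 1 that encode related proteins with antiviral activity. IFI44 (ILMN_1760062) was already bright in control, at 13.31, 12.95 and 12.95, and read 13.57, 13.65 and 13.70 under doxycycline and 14.06, 14.08 and 14.05 in recovery. Recovery stood 1.99-fold above control (0.99 ± 0.13, limma adjusted p = 4e-04). Doxycycline arrays all lay above the control arrays and below the recovery arrays, yet neither the difference from control (0.57 ± 0.13, adjusted p = 0.060) nor that of recovery from doxycycline (0.42 ± 0.13, adjusted p = 0.060) passed the test. The first of these was called in 9 of 23 alternatives and the second in 8. Control replicate 1 was the highest of its group for IFI44, by 0.36.

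IFI44L rose at both probes under doxycycline and again after withdrawal. The first probe (ILMN_1723912) read 12.06, 11.82 and 12.04 in control, 13.29, 13.46 and 13.39 under doxycycline, and 13.98, 13.91 and 13.93 in recovery. The second (ILMN_1835092) read 9.97, 9.77 and 9.79 in control, 11.16, 11.46 and 11.18 under doxycycline, and 12.42, 12.53 and 12.28 in recovery. No groups overlapped at either probe. Doxycycline exceeded control by nearly the same amount at both, 1.41 ± 0.12 (limma adjusted p = 1e-04) and 1.42 ± 0.14 (adjusted p = 0.00018). Recovery exceeded doxycycline by 0.56 ± 0.12 at the bright first probe (adjusted p = 0.012) and by 1.14 ± 0.14 at the second (adjusted p = 0.00028). The first of these 2 calls was lost without recovery replicate 1 (0.54, adjusted p = 0.053) or recovery replicate 2 (0.57, 0.051), with median scaling (0.52, 0.11), and with a minimum difference of 1.

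IFI35 encodes a leucine zipper protein that pairs with NMI. Its probe (ILMN_1745374) read 9.05, 8.97 and 9.25 in control, 10.25, 10.03 and 10.26 under doxycycline, and 12.14, 12.24 and 12.11 in recovery. Its doxycycline arrays lay 2.13-fold above control on average (1.09 ± 0.13, limma adjusted p = 0.0012) and its recovery arrays 8.40-fold above control (3.07 ± 0.13, adjusted p = 2.3e-08). The step after withdrawal, 1.98 ± 0.13 in recovery over doxycycline (adjusted p = 3e-06), was called in all 23 alternative settings.

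EPSTI1, named for its induction in epithelial cells by stromal cells, rose by equal steps. Its probe (ILMN_2388547) read 10.96, 10.99 and 10.83 in control, 12.36, 12.07 and 12.26 under doxycycline, and 13.50, 13.61 and 13.58 in recovery. Doxycycline exceeded control by 1.30 ± 0.13 (limma adjusted p = 0.00018) and recovery exceeded doxycycline by 1.33 ± 0.13 (adjusted p = 4.9e-05), for a rise of 6.22-fold in recovery over control. The difference between the steps was 0.03, with a 95% interval from -0.44 to 0.51, and its sign depended on the scaling of the arrays.

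XAF1 encodes a protein that binds XIAP, an inhibitor of caspases, and is known to promote apoptosis. Neither probe was called for doxycycline against control, and both rose after withdrawal. The first probe (ILMN_1742618) read 6.58, 6.86 and 7.32 in control, 7.18, 6.47 and 6.45 under doxycycline, and 8.76, 9.33 and 9.01 in recovery. Control and doxycycline arrays overlapped (-0.22 ± 0.24 for doxycycline against control, limma adjusted p = 0.61), and recovery stood 4.33-fold above control (2.11 ± 0.24, adjusted p = 0.00011) and 5.04-fold above doxycycline (2.33 ± 0.24, adjusted p = 9.2e-05).

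The second XAF1 probe (ILMN_2370573) was not detected on any control array, was detected on 1 of 3 doxycycline arrays, and was detected on 3 of 3 recovery arrays. Its recovery levels were 7.83, 8.24 and 7.53, against measured values of 4.83, 4.88 and 4.89 in control. That gives at least 5.92-fold higher in recovery than the lowest detected signal of the control arrays, a bound that was not itself tested. Recovery exceeded doxycycline, whose arrays read 5.17, 5.33 and 5.14, by 2.65 ± 0.17. The probe passed the filter only with its recovery arrays, so its p-values for recovery are not given as support. Doxycycline against control was 0.35 ± 0.17 at this probe (limma adjusted p = 0.24), positive where the first probe was negative. It was 1.40 and called without background correction (adjusted p = 0.041) and 1.41 with the authors' processed values (0.041), so the second probe does not settle whether XAF1 changed under doxycycline. The first probe was called lower under doxycycline with array weights (-0.52, 0.011), a fit that did not converge. XIAP, the partner of XAF1, was read near background, and was detected on 1 of 3 control arrays and 1 of 3 recovery arrays. Its reading was not called for recovery against control (-0.11 ± 0.16, adjusted p = 0.72), which does not show that XIAP RNA was unchanged.

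LY6E encodes a GPI-anchored protein of the cell surface that restricts the entry of coronaviruses. Its probe (ILMN_1695404) read 10.35, 10.23 and 9.95 in control, 11.54, 11.43 and 11.55 under doxycycline, and 13.64, 13.66 and 13.68 in recovery. The recovery arrays differed by 0.03 at most. LY6E was 2.52-fold above control under doxycycline (1.33 ± 0.13, limma adjusted p = 0.00022) and 11.2-fold above control in recovery (3.48 ± 0.13, adjusted p = 8.9e-09), second to IFI27 among the 12 probes detected in control. LY6E-DT, the divergent transcript beside it, was read near background and was not called (-0.20 ± 0.26 for recovery against control, adjusted p = 0.67).

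PLSCR1 encodes a palmitoylated membrane protein named as a phospholipid scramblase, which also acts against viruses. Its probe (ILMN_1745242) read 9.24, 9.18 and 9.10 in control, 10.00, 9.62 and 9.90 under doxycycline, and 11.70, 11.93 and 11.63 in recovery. Doxycycline replicate 2 was the lowest of its group, and the groups did not overlap. Doxycycline exceeded control by 0.67 ± 0.14 (limma adjusted p = 0.045), and that call was lost on leaving out 7 of the 9 arrays singly (all but doxycycline replicates 1 and 2) and in 14 of 23 alternatives in all. Recovery stood 5.99-fold above control (2.58 ± 0.14, adjusted p = 1.8e-07).

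HELZ2 encodes a helicase domain protein known as a coactivator of PPAR nuclear receptors. Its probe (ILMN_1787509) read 10.01, 9.96 and 9.96 in control, 11.48, 12.44 and 11.77 under doxycycline, and 12.65, 12.71 and 12.86 in recovery. Doxycycline replicate 2 was 0.66 above the next array, opposite to its position for PLSCR1. Doxycycline exceeded control 3.79-fold (1.92 ± 0.20, limma adjusted p = 4e-04), the largest rise under doxycycline among the 12 probes detected in control, and by 1.65 without replicate 2 (adjusted p = 0.00012). Recovery exceeded doxycycline by 0.84 ± 0.20 (adjusted p = 0.018), or 1.12 without doxycycline replicate 2, and that call was lost without doxycycline replicate 3 (0.79, 0.068), recovery replicate 2 (0.86, 0.066) or recovery replicate 3 (0.78, 0.072), and in 6 of 23 alternatives in all.

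The step after withdrawal exceeded the step under doxycycline for IFI27, XAF1 and PLSCR1. The contrast was recovery minus doxycycline less doxycycline minus control, and 4 of 13 probes were called, all positive, against 2.9% of all probes in either direction. IFI27 gained 1.60 ± 0.20 more in the second step (limma adjusted p = 0.0048), and this call held in all 22 alternative settings in which the contrast could be fitted. The number of called probes ran from 1, without background correction or with the authors' processed values, to 11. XAF1 gained 2.55 ± 0.42 more at its first probe (adjusted p = 0.014), and this call was lost in 5 of 22 alternatives: without background correction (2.79, 0.073), with the authors' processed values (2.80, 0.073), without the filter (2.55, 0.054), without doxycycline replicate 3 (2.29, 0.079) and without recovery replicate 2 (2.41, 0.053). The second XAF1 probe, also counted, rests on background readings in control and on 2 of 3 doxycycline arrays and gives no measured step. PLSCR1 gained 1.25 ± 0.24 more (adjusted p = 0.029), which was lost on leaving out any single array but doxycycline replicate 1. IFI35 (0.89 ± 0.22, adjusted p = 0.055) and LY6E (0.82 ± 0.23, adjusted p = 0.068) had larger second steps that were not called. The first probes of IFI6 (-0.85 ± 0.22, adjusted p = 0.060) and IFI44L (-0.85 ± 0.21, adjusted p = 0.055) and HELZ2 (-1.08 ± 0.35, adjusted p = 0.098) had smaller second steps, none of them called.

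**Figure D2:**
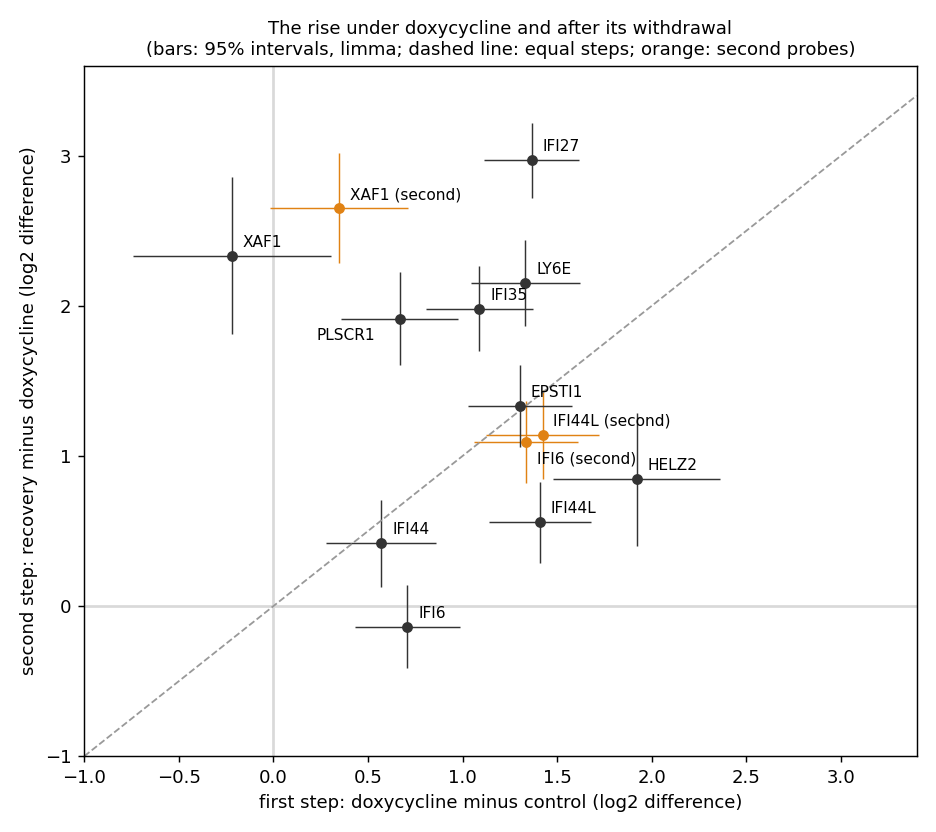
Log2 difference of doxycycline minus control (horizontal axis) against log2 difference of recovery minus doxycycline (vertical axis) for the 13 probes, with 95% intervals from limma as bars, second probes in orange and a dashed line where both steps are equal. IFI27 and both XAF1 probes lie far above the line, the second XAF1 probe from undetected control readings, EPSTI1 lies on it, and HELZ2 and the first probes of IFI6 and IFI44L lie below it.

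The share of the rise that had been reached under doxycycline, as the doxycycline difference from control in percent of the recovery difference from control on the log2 scale, had a median of 43.8% over the first probes of the 10 genes. Computed from each doxycycline array alone the median was 44.7%, 39.6% and 45.0%. Among all 535 probes that were called and at least 1 higher in recovery than control on the log2 scale, 11 of them probes of these genes, the median was 34.6%, with quartiles of 17.5% and 50.1%. No such minimum was set for the 10 genes. The first probes of IFI6 and IFI44 rose by only 0.57 and 0.99, with shares of 124% and 57.6%, and are not among the 535. The medians therefore cover sets chosen by unlike rules, and the gap between them is not a like comparison. On the linear scale the medians were 21.7% for the 10 genes and 21.2% for the 535 probes.

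The genes ranged widely around that median. XAF1 was lowest at -10.4% (95% Fieller interval -41.6 to 12.9), with 11.6% at its second probe (-0.69 to 22.6), which rests on undetected control values and was 28.7% without background correction and 28.8% with the authors' processed values. The first probe ran from -21.9% without doxycycline replicate 1 to -0.83% without control replicate 3. PLSCR1 followed at 25.8% (14.7 to 36.3), IFI27 at 31.5% (26.3 to 36.5), IFI35 at 35.5% (27.2 to 43.5) and LY6E at 38.2% (30.9 to 45.4), all with intervals below 50%. EPSTI1 stood at 49.4% (40.3 to 58.4) and IFI44 at 57.6% (31.6 to 85.0), whose intervals include 50%. HELZ2 at 69.5% (55.6 to 84.3) and the first probe of IFI44L at 71.6% (59.6 to 84.4) had intervals above 50%. These intervals are not adjusted for the number of probes. The difference between the steps puts the same question with adjustment. It was not called for IFI35, LY6E, HELZ2 or the first probes of IFI6 and IFI44L. On the linear scale the share was 50.6% for HELZ2 and 56.9% for the first IFI44L probe. For HELZ2 the log2 share was 59.6% without doxycycline replicate 2. The first probe of IFI6 was at 124% (79.9 to 215). In this order of genes, the intervals of neighbours overlap throughout, save between XAF1 (first probe) and PLSCR1.

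**Figure D3:**
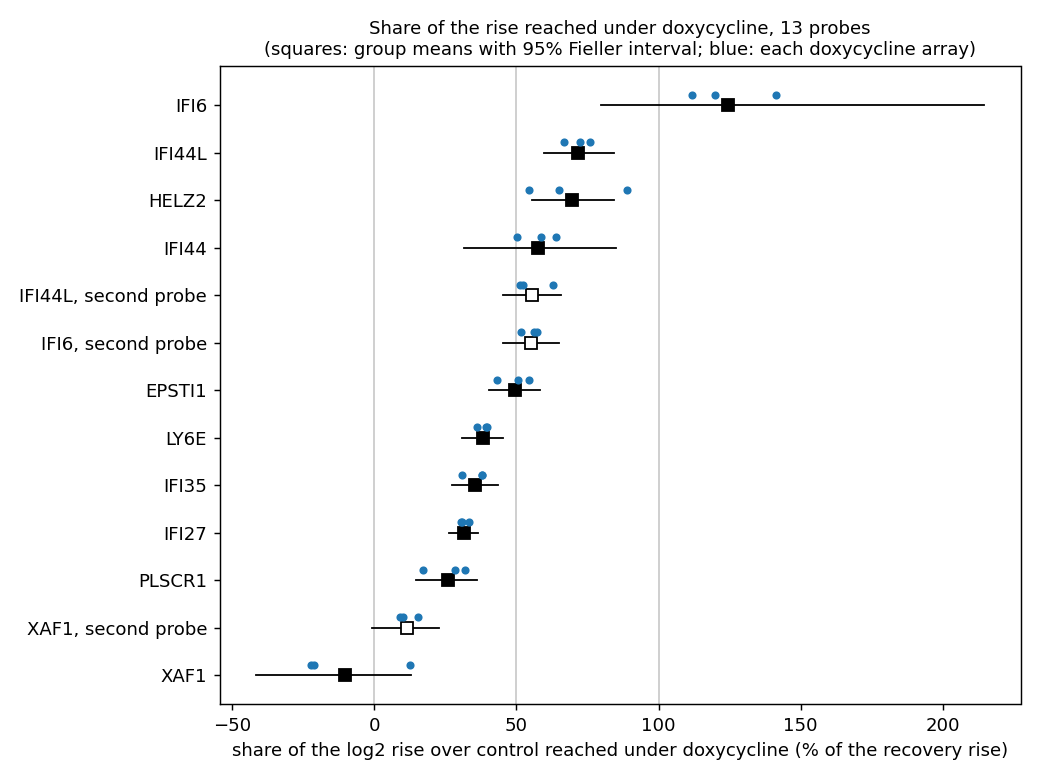
Share of the log2 rise over control that was reached under doxycycline, in percent of the recovery rise, for the 13 probes (horizontal axis), with 95% Fieller intervals; squares are group means, open for second probes, and small blue points are the share from each doxycycline array. Shares run from -10.4% for XAF1 to 124% for the first probe of IFI6, and the arrays of HELZ2 and of the first XAF1 probe are the most spread apart.

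Probes of the same gene gave different shares. The dimmer IFI6 probe gave 55.0% (45.3 to 64.9) where the brighter gave 124%, and the dimmer IFI44L probe gave 55.5% (45.4 to 65.6) where the brighter gave 71.6%. In both genes the brighter probe had the larger share, while in XAF1 it had the smaller. Among the 535 rising probes, the median share was 24.6% for the 175 probes whose recovery level was under 8, 39.7% for the 117 between 10 and 12, and 49.2% for the 28 at 13 and over. The control and recovery levels both enter the share, so a relation between share and level is built in to an unknown degree. Both IFI6 probes, IFI44, IFI44L (first probe), IFI27, EPSTI1 and LY6E had recovery levels over 13. How far a ceiling on bright signals shapes these shares was not tested.

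**Figure D4:**
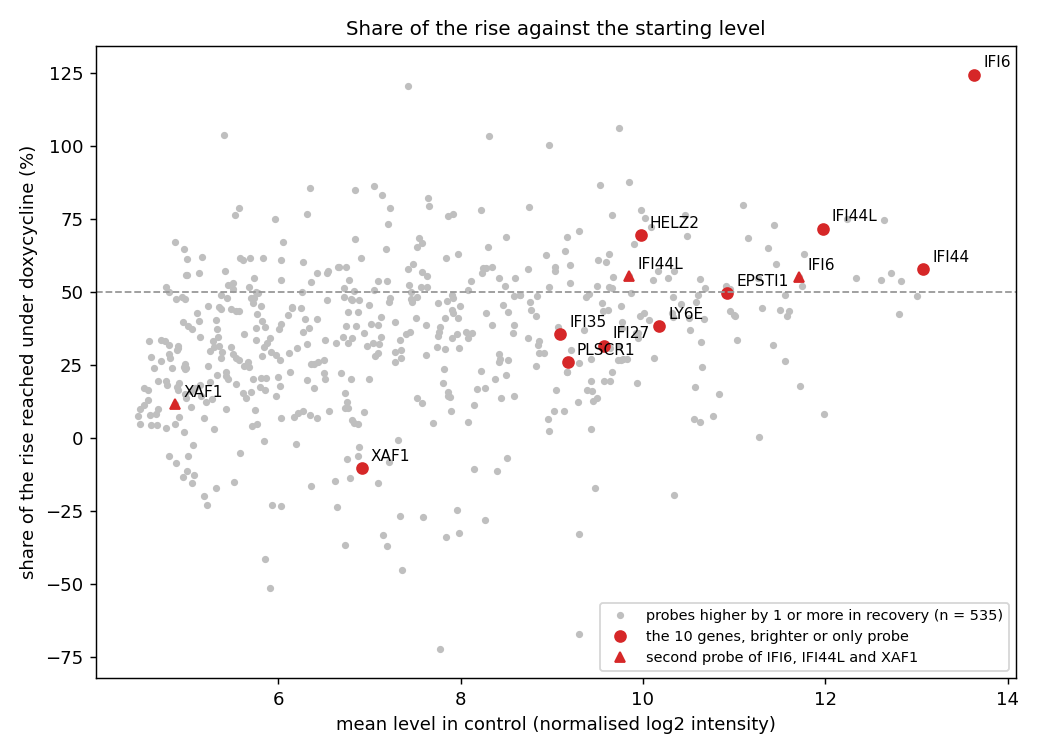
Share of the rise reached under doxycycline in percent (vertical axis) against the mean control level as normalised log2 intensity (horizontal axis), for the 13 probes in red and for the 535 probes higher by 1 or more in recovery in grey. The red points run from XAF1 at the lower left to IFI6 and IFI44 at the right. The control level is part of the share's own formula, so the 2 axes are not independent.

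Genes related to the 10 by family or by binding were measured to set beside them, from a list of 18 of which 14 passed the filter, read at the brightest probe of each gene. Under doxycycline 0 of 14 were called higher by limma, where 1.28% of 12245 genes were, so this count is not particular to the list. Likewise 0 were called lower, but the share of all genes called lower under doxycycline was not counted. At an unadjusted p under 0.05, 3 were higher (IFI16, IFI30 and XIAP), and the share of all genes at that threshold was not counted either. At recovery 5 were called higher (8.76% of genes were) and 3 lower (7.68%) than control. The higher ones were IFI30, a lysosomal thiol reductase (1.54 ± 0.17), IFI16, a DNA sensor (1.51 ± 0.16), NMI, the partner of IFI35 (1.29 ± 0.23), IFI27L1, which neighbours IFI27 (0.61 ± 0.14), and PLSCR4, a relative of PLSCR1 (0.47 ± 0.13). The lower ones were CD59, a GPI-anchored relative of LY6E that inhibits complement (-0.68 ± 0.18), PLSCR3 (-0.42 ± 0.12) and HELZ (-0.40 ± 0.12). Between doxycycline and recovery 4 were called higher (6.99% of genes) and 1, CD59, lower (7.63%).

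The contrast within families was wide. IFI27 was 4.33 above control at recovery, IFI27L1 was 0.61 above and IFI27L2, which flanks it on the other side, was at 0.02 ± 0.19 (limma adjusted p = 0.96). PLSCR1 was 2.58 above control where PLSCR4 was 0.47 above and PLSCR3 below. The probes of PPARA, PPARG and PPARD, the receptors that HELZ2 is known to work with, were not called for recovery against control (0.12 ± 0.16, -0.29 ± 0.13 and 0.00 ± 0.15). LY6K, LY6D and LY6H did not pass the filter on dim signals.

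**Figure D5:**
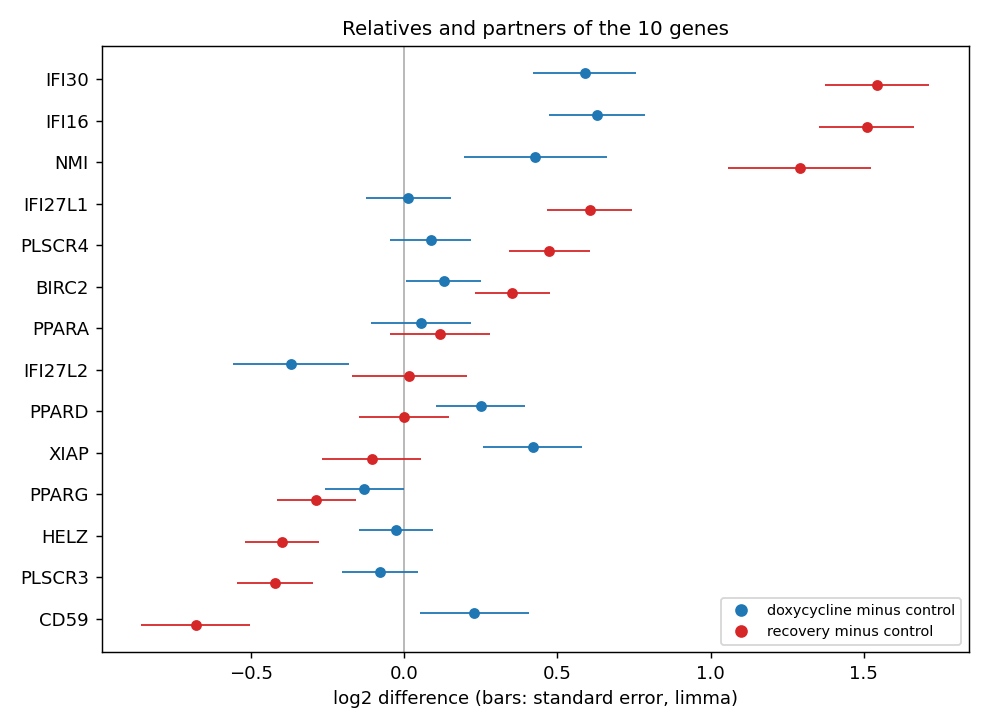
Log2 differences from control of doxycycline (blue) and recovery (red) for 14 relatives and partners of the 10 genes, with standard errors from limma as bars. IFI30, IFI16 and NMI lie highest in recovery, at 1.29 to 1.54, CD59 lies lowest at -0.68, and all 14 differences under doxycycline lie between -0.37 and 0.63.

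Better known interferon-stimulated effectors were called in the same direction. Of 40 such genes 31 were called higher than control under doxycycline (1.28% of all genes were), 38 at recovery (8.76%), and 35 rose from doxycycline to recovery (6.99%). By limma 0 were called lower in any of the 3 comparisons, and 0 were lower at an unadjusted p under 0.05. Of all genes 7.68% were called lower in recovery than control and 7.63% lower than under doxycycline. The share called lower under doxycycline, and the shares at the unadjusted p, were not counted. The median differences of the 40 were 1.15, 2.40 and 1.30 in the order of these counts. CMPK2 and TRIM22, both among the 40, passed the filter only with their recovery arrays. PML and LAMP3, named after their values were seen, were the 2 not called at recovery. OAS2, which makes the messenger that activates RNase L, was 5.32 ± 0.13 above control at recovery, MX2 5.87 ± 0.14 and RSAD2 5.92 ± 0.18. Among the 37 that were at least 1 higher at recovery, the median share reached under doxycycline was 46.5%, from 3.4% to 87.6%. The lowest share is that of CMPK2, which was undetected on every control and doxycycline array. TRIM22, at 17%, was undetected on every control array. These 2 shares rest on background readings and are not measured shares.

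By Pearson correlation over the 9 arrays with the mean profile of the 10 genes, the nearest of the 1063 other genes called higher at recovery than control, a choice that itself favours a like profile, were OAS2 (r = 0.998), GBP4 (0.997), MX2 (0.997), IFIH1 (0.997) and GBP1 (0.997), with shares of 49.9%, 47.0%, 43.4%, 46.1% and 43.8%. Of the 10 genes themselves, read at their first probes, EPSTI1 lay closest to that profile (0.996), and IFI6 (0.728) and XAF1 (0.796) were farthest. Each of these probes is itself part of the mean profile, so its correlation is in part with itself. The second IFI6 probe, which took another course than the bright first probe, was not compared. The 3 group levels dominate these correlations.

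Of 22 listed genes of interferon ligands, receptors and signalling 15 were measured, and 1, IRF9, the DNA-binding subunit of the interferon-stimulated complex, was called higher under doxycycline than control (0.73 ± 0.12, limma adjusted p = 0.015). At recovery 8 were called higher than control, among them IRF1 (1.79 ± 0.12), JAK2 (1.44 ± 0.14) and IRF9 (1.12 ± 0.12). Of all genes 1.28% were called higher under doxycycline and 8.76% at recovery. IFNB1, which encodes interferon beta, was detected on 0 of 3 control arrays, 0 of 3 doxycycline arrays and 3 of 3 recovery arrays, where it averaged 7.63 ± 0.23 (SD, n = 3). It is among the 8 and passed the filter only through its recovery arrays. IRF7 did not pass the filter.

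Markers of other cell types were read beside these rises. Of 12 haematopoietic markers 5 passed the filter, PTPRC, ITGAM, LYZ and CD3E were not among them, and the summed intensity of the 5 was 1046 to 1148 in control, 1498 to 1952 under doxycycline and 3658 to 4325 in recovery. CD68, a lysosomal protein of macrophages and other cells, was the only one called higher than control, by 0.92 ± 0.14 under doxycycline (limma adjusted p = 0.008) and 2.49 ± 0.14 in recovery (adjusted p = 2.1e-07). CD163 was called lower in recovery than under doxycycline (-0.67 ± 0.16, adjusted p = 0.016) and read -0.47 ± 0.16 for recovery against control (adjusted p = 0.065), and CD14, CSF1R and CD79A were not called. The 7 osteoblast markers summed to 43168 to 46272 in control, 47157 to 63335 under doxycycline and 49347 to 54663 in recovery. The part of these markers in the rise of the 10 genes was not tested.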

How the data were processed

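The labels describe total RNA of 9 SaOS2 samples and a single dye. Probe names and headers are of the Illumina bead array kind. The signal table deposited by the authors holds an average intensity per probe from which background had been subtracted, since 29.2% to 32.5% of values lie below 0, and it is not normalized between arrays. Beside each intensity the deposited table gives a detection p-value, per the file headers. A second table deposited by the authors holds quantile-normalized intensities. No label or header names the software. Signal columns carry codes. Each was matched to its sample through the second table, whose columns bear sample names (rank correlation 1 with the assigned column, at most 0.9623 with another). No column was left over.

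In limma 3.58.1 (R 4.3.3), normexp correction used the detection p-values and added 16 as offset. Values were put on the log2 scale before quantile normalization. The filter asked for a detection p under 0.05 on 3 or more arrays and left 22039 probes of 12245 genes. The fit (lmFit and eBayes) covered all 9 arrays, with 6 residual and 5.77 prior degrees of freedom. Benjamini-Hochberg adjustment ran over all kept probes. Where a probe was undetected on every array of the dimmer group, the fold is a bound against the lowest detected signal. Shares have 95% Fieller intervals. Marker sums are linear. The steps were tested on simulated data. The number of arrays, 3 a group, limits the precision. Figures were drawn with Python 3.11.15 and matplotlib 3.10.9.

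The 10 genes, the lists beside them and the rule for names (all members, all measured relatives, up to 4 genes of any other list by smallest p at recovery, and the 5 most like the members' mean profile) were chosen with earlier results of these data known. Some genes were named outside this rule, among them several cell type markers, IRF7, PML, LAMP3, CMPK2, TRIM22, APC and LY6E-DT. Alternatives changed the offset, background correction, scaling, filter, value table, prior, weights, replicate block, arrays fitted, minimum difference and probe choice, and left out each array. Same-numbered arrays of different groups did not deviate together (correlations of -0.089 to 0.092), so the numbers were not used as pairs.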

Additional observations from a re-analysis of the deposited data

How the results depend on the processing

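Of 1167 values of single probes under 23 alternatives, 1057 kept their direction and their side of the threshold, 54 were no longer called, 51 became called and 5 changed sign. All 5 sign changes were the EPSTI1 difference between the steps, at -0.0188 with median scaling, -0.0694 with cyclic loess, -0.0407 with array weights, -0.0045 without control replicate 2 and -0.1339 without doxycycline replicate 2, up to 0.1577 without doxycycline replicate 1. The number of probes called higher stayed within 1.5 times its reported value in all 3 group comparisons. The count for the difference between the steps, 4 as reported, was 8 with an offset of 50, 1 without background correction, 1 with the authors' processed values, 7 with a detection p under 0.01, 8 with a trended robust prior, 11 with array weights, 7 at the gene level and 2 to 9 on leaving out single arrays, 2 without doxycycline replicate 3 or recovery replicate 2 and 9 without doxycycline replicate 1. The cause was not tested. The array weights did not converge (doxycycline replicate 3 was weighted 79.158, doxycycline replicate 2 0.107), so that fit rests almost on 1 doxycycline array. The median share was 38.74% with median scaling, 21.73% on the linear scale and 38.36% to 45.91% on leaving out single arrays. With median scaling and without recovery replicate 3 (38.36%) IFI6 was not called at recovery and left the median, which then covers 9 genes. Over all 10 genes it was 44.56% and 43.95% in these settings.

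With the replicate block, 8 probes were called for doxycycline against control, 13 for recovery against control, 11 for recovery against doxycycline and 3 for the difference between the steps. The numbers share no stated origin, so the block is no paired test.

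The limits are few arrays, readings near the top of the scale, and values near background for XAF1, XIAP, APC and LY6E-DT. The bright readings are those of IFI6, IFI44 and IFI44L, and in recovery also of IFI27, EPSTI1 and LY6E.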
